A study of Oryctolagus cuniculus with 12 samples.

Results

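Splicing factor genes were analysed in rabbit conjunctiva before and after trabeculectomy, a glaucoma operation that drains aqueous humor through a scleral flap into a filtering bleb under the conjunctiva. The genes were chosen by name: the SRSF, HNRNP, SF3A and SF3B, U2AF, PRPF, SNRP and TRA2 families and AAR2, with at least 10 counts in at least 3 libraries. Of 68 genes with such names, 67 passed, among 20566 genes in the table and 14835 genes tested. The gene that did not pass was U2AF2, which had 0 counts in all 12 libraries, as had 2336 genes of the table. Whether U2AF2 was not expressed or its reads were not assigned was not tested. RNA-seq was performed in 4 groups of 3 libraries each from female Japanese White rabbits aged 12 to 14 weeks. The control group (cont) was conjunctiva of the left eyes without surgery. The operated right eyes gave the groups TL-3h, taken 3 hours after the operation, TL-3d, taken after 3 days, and TL-14d, taken after 14 days. In the operation that the paper describes, mitomycin C, which crosslinks DNA, was applied at 0.4 mg/mL for 3 minutes. Operated eyes also received 0.1 mL of 0.4% betamethasone and an ointment of erythromycin and colistin. The age and these doses are given in the paper, which took these sequence data from an earlier analysis. Surgery and these drugs cannot be told apart in any comparison with the control. The labels do not tie control eyes to operated eyes, and they do not say when the control tissue was taken or that the libraries of a group came from separate animals, and p-values measure the spread between these libraries.

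The spliceosome removes introns from pre-mRNA. It is built on the small nuclear ribonucleoproteins (snRNPs), each of which is a small RNA with a ring of Sm proteins and particle-specific proteins. The U1 snRNP and the U2AF heterodimer recognise the ends of an intron, SF3A and SF3B hold the U2 snRNP at the branch point, and the U4/U6.U5 tri-snRNP brings in the catalytic core. SR proteins and TRA2 proteins mostly favour the inclusion of exons that they bind, whereas many hnRNP proteins favour skipping. Several of these genes are known to control their own transcripts through exons that lead to mRNA decay.

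The total estimated count per library ranged from 27111348 to 38591425. Conjunctival epithelial genes were present in every group, with a summed level of 7396 to 11211 CPM (counts scaled to library size times a factor from the trimmed mean of M values, TMM) in the control, 6415 to 10247 CPM at 3 hours and 7923 to 18938 CPM at 3 days over the list. Other marker lists moved with time. All 9 neutrophil genes tested were higher at 3 hours, with a sum of 5.22 to 88.4 CPM in the control and 1250 to 3133 CPM at 3 hours. Of 10 cell cycle genes, 9 were lower at 3 hours and 7 were higher at 3 days. The summed fibroblast genes ranged from 12307 to 76976 CPM in the control and from 105562 to 126565 CPM at 3 hours, although 0 of these 8 genes passed the test. At 3 days they ranged from 1371 to 64983 CPM, and 2 of the 8 were lower than at 3 hours. The summed endothelial genes ranged from 63.7 to 275 CPM in the control and from 606 to 1211 CPM at 3 hours, with 2 of 5 genes higher. The summed monocyte and macrophage genes ranged from 105 to 826 CPM in the control and from 1403 to 2206 CPM at 3 days, with 4 of 8 genes higher. The part of these shifts in the results that follow was not tested, and in bulk tissue fewer cells of a type and less RNA per cell cannot be told apart. The library of TL-14d replicate 1 stood apart, with a mean correlation of 0.959 with the control libraries and 0.883 with its own group. TL-14d replicate 2 had the lowest mean correlation of its group with the control libraries (0.863) and a neutrophil sum of 2163 CPM, against 8.17 and 199 CPM in the other 14-day libraries.

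At 3 hours most splicing factor genes were higher than in the control on the TMM scale (a scaling that assumes most genes do not change). In edgeR's quasi-likelihood test, with p-values adjusted over all genes (q) and a threshold of 0.05, 43 of 67 genes were higher and 5 were lower. Over all genes tested, 23.2% were higher and 22.2% were lower. The median log2 fold change of the 67 genes was 0.52, and that of all genes tested was 0.02. At 3 hours 45 genes lay wholly above the control libraries and 6 wholly below, against 28.9% and 28.3% of all genes. The highest of the 4 group means was at 3 hours for 50 of the 67 genes. The fold change was at least 2 for 17 of those that passed. At 3 days 5 genes were higher than in the control and 9 were lower, against 10.6% and 7% of all genes, with a median log2 fold change of -0.02. Without overlap between libraries, 18 were above and 24 below the control, against 23.8% and 21.7% of all genes. Between 3 hours and 3 days 42 genes fell and 3 rose on the TMM scale, against 19% and 18.4% of all genes. The median was -0.64 beside -0.05 for all genes. Here 53 genes lay wholly below and 3 wholly above the 3-hour libraries, against 28.5% and 26.2% of all genes. The joint test of the 3 time points called 53 of 67 genes, against 52.4% of all genes. Of the 43 genes that were higher at 3 hours, 36 were lower at 3 days than at 3 hours.

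**Figure D1:**
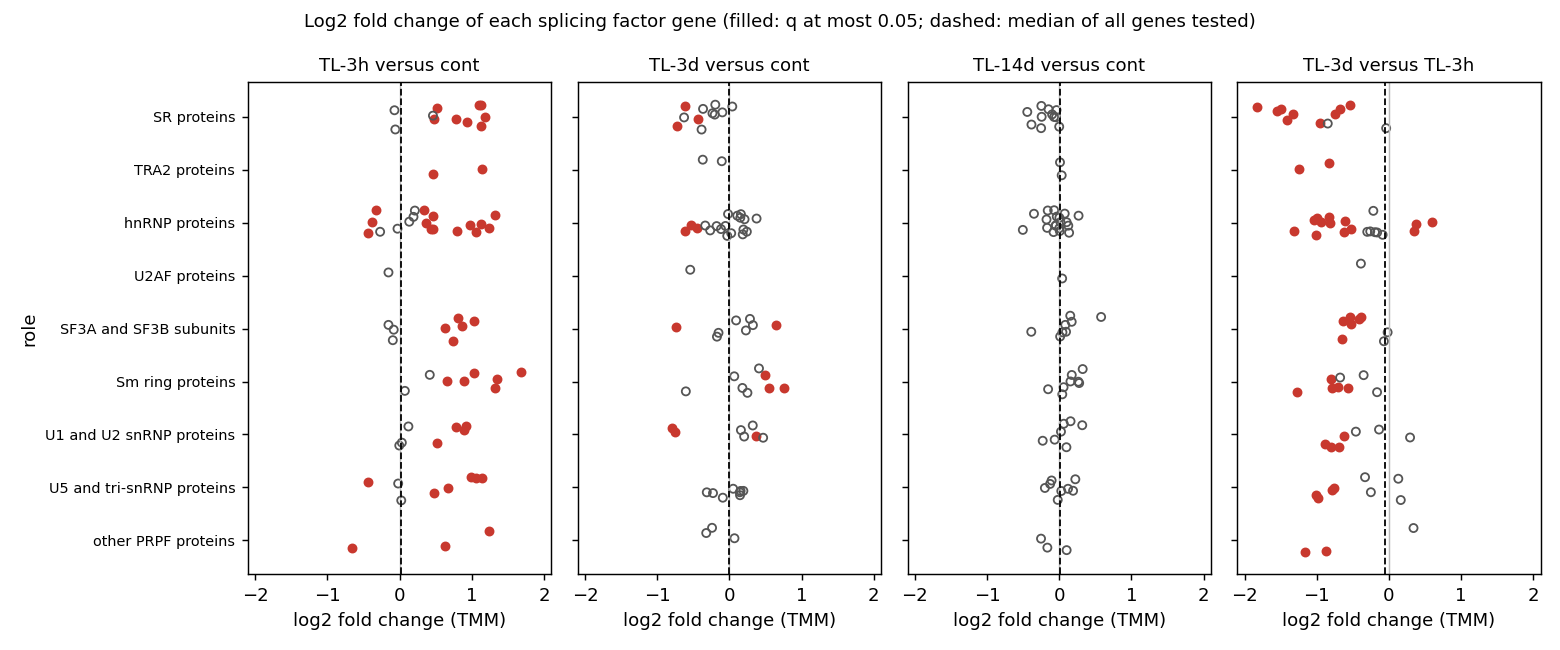
Log2 fold change (TMM scale) of each of the 67 splicing factor genes by role, for 4 comparisons. Each point is 1 gene, filled points have q at most 0.05, and the dashed line is the median of all genes tested. At 3 hours 43 filled points lie above 0 and 5 below, and from 3 hours to 3 days 42 lie below 0.

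How far these genes rose at 3 hours depended on the scaling. TMM factors were 0.768 to 0.783 at 3 hours and 1.03 to 1.13 in the other groups, and the 50 most abundant genes held 21.4% to 24.0% of the total count at 3 hours and 16.9% to 21.0% in the control. The summed level of the 67 genes was 10722 to 11583 CPM in the control and 15835 to 16479 CPM at 3 hours on the TMM scale. As a share of the library total it was 1.11% to 1.31% in the control and 1.22% to 1.28% at 3 hours. These groups do not overlap on the first scale and overlap on the second. With library size as the sole scaling, 21 genes were higher and 14 were lower at 3 hours, against 12.7% and 38.2% of all genes, and the median was 0.01 beside -0.47 for all genes. The 21 genes that were higher on both scales were AAR2, HNRNPAB, HNRNPF, HNRNPH1, HNRNPH2, HNRNPU, PRPF19, PRPF38A, PRPF4, SF3B5, SNRPB, SNRPB2, SNRPD1, SNRPD3, SNRPF, SNRPG, SRSF2, SRSF3, SRSF6, SRSF7 and TRA2B. The 5 that were lower on both were HNRNPL, HNRNPLL, HNRNPUL1, PRPF18 and PRPF8, and 0 genes passed in opposite directions. HNRNPA2B1, HNRNPUL2, PRPF31, SF3A1, SF3B1, SF3B2, SRSF9, SRSF11 and U2AF1L4 were lower at 3 hours with library size as the sole scaling and did not pass on the TMM scale. A rise of the other 22 genes is therefore a rise relative to most genes and is given below on the TMM scale alone. The change from 3 hours to 3 days depended on the scaling as well. With library size as the sole scaling, 20 genes fell and 13 rose, against 8.31% and 34.2% of all genes. The median was then -0.16 beside 0.43 for all genes.

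**Figure D2:**
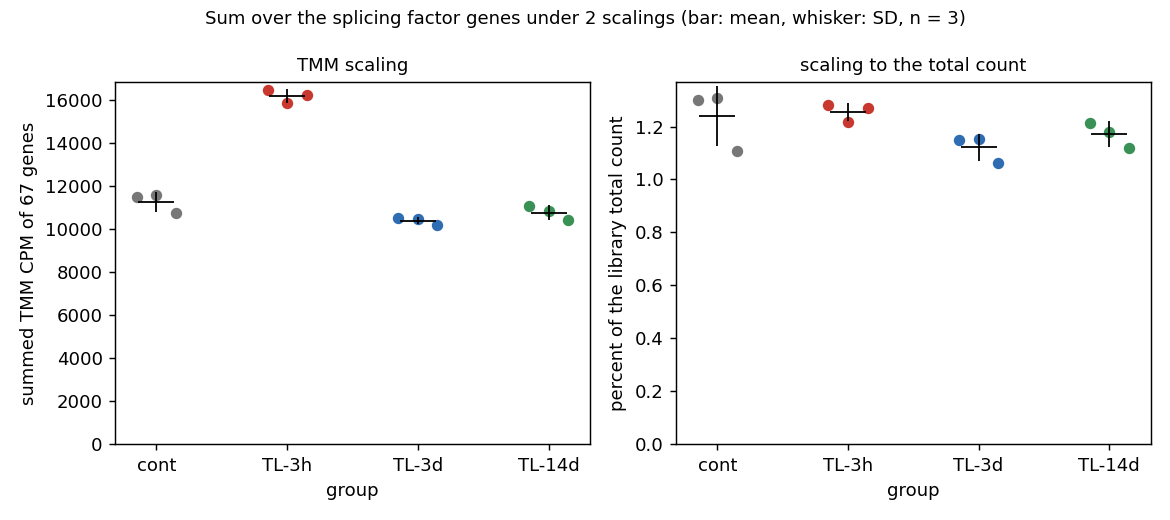
Sum over the 67 splicing factor genes per library, as TMM CPM (left) and as percent of the library total count (right), by group. Points are libraries, bars are means and whiskers are SDs (n = 3). The 3-hour libraries lie at 15835 to 16479 CPM on the left, above all others, and within the control range of 1.11% to 1.31% on the right.

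SR proteins, which bind exonic enhancers, were mostly higher at 3 hours and fell afterwards. At 3 hours 8 of 11 were higher and 0 were lower on the TMM scale, against 23.2% and 22.2% of all genes. The median log2 fold change was 0.78. Between 3 hours and 3 days 9 of 11 fell on that scale, against 19% of all genes. With library size as the sole scaling, SRSF2, SRSF3, SRSF6 and SRSF7 were higher at 3 hours, and SRSF9 and SRSF11 were lower. Over all genes 12.7% were higher and 38.2% were lower with that scaling. SRSF7, a shuttling SR protein (chr2:147635103-147640941 in OryCun2.0), had 107, 100 and 90.3 CPM in the control and 200, 210 and 226 CPM at 3 hours. It had 60.9, 55.4 and 63.9 CPM at 3 days and 101, 74.2 and 75.4 CPM at 14 days. All 3-hour libraries were above and all 3-day libraries were below the control. The log2 fold change was 1.10 ± 0.14 (SE, q = 0.000241) at 3 hours and -0.72 ± 0.14 (q = 0.0142) at 3 days, and from 3 hours to 3 days it was -1.82 ± 0.14 (q = 3.21e-05), the largest fall among the 67 genes.

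SRSF2, which also binds exons in the nucleus, had 81.3, 82.1 and 78.7 CPM in the control, 195, 194 and 158 CPM at 3 hours and 68.9, 64.6 and 72.2 CPM at 3 days. The 3-hour libraries lay above all others, with a log2 fold change of 1.18 ± 0.13 (q = 9.98e-05), and the following fall was -1.41 ± 0.13 (q = 4.78e-05). SRSF3, the smallest SR protein, and SRSF6 rose by 1.13 ± 0.14 (q = 0.000178) and 1.13 ± 0.13 (q = 0.000169). SRSF5 rose by 0.93 ± 0.20 (q = 0.00431), and with library size as the sole scaling the value was 0.43 (q = 0.120). From 3 hours to 3 days the log2 fold change was -1.56 for SRSF5, -1.50 for SRSF6 and -1.32 for SRSF3, and these falls passed on both scales. SRSF1, SRSF4 and SRSF10 were higher at 3 hours on the TMM scale alone. SRSF9 and SRSF12 passed in no comparison on the TMM scale, and SRSF12 was near the low end of detection with 0.672 to 2.11 CPM. SRSF11 did not pass at 3 hours on the TMM scale (-0.07, q = 0.718) and was lower at 3 days (-0.62 ± 0.14, q = 0.0214).

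TRA2 proteins resemble SR proteins and bind purine-rich exonic enhancers. TRA2B (chr14:79672409-79691622) had 197, 198 and 168 CPM in the control, 383, 450 and 409 CPM at 3 hours, 173, 172 and 178 CPM at 3 days and 208, 187 and 172 CPM at 14 days. The 3-hour libraries were at least at 383 CPM and did not overlap with any other group. The change was 1.14 ± 0.12 (q = 0.000108) at 3 hours and -1.25 ± 0.12 (q = 7.85e-05) from 3 hours to 3 days. TRA2A (chr10:8559159-8578294) had 250, 213 and 177 CPM in the control and 281, 341 and 262 CPM at 3 hours. Its change of 0.46 ± 0.16 (q = 0.0350) was near the threshold, and the call was lost with DESeq2 size factors (0.41, q = 0.0616) and without any 1 of the 3-hour libraries (q of 0.0560 to 0.208). With library size as the sole scaling it was -0.05 ± 0.18 (q = 0.852).

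**Figure D3:**
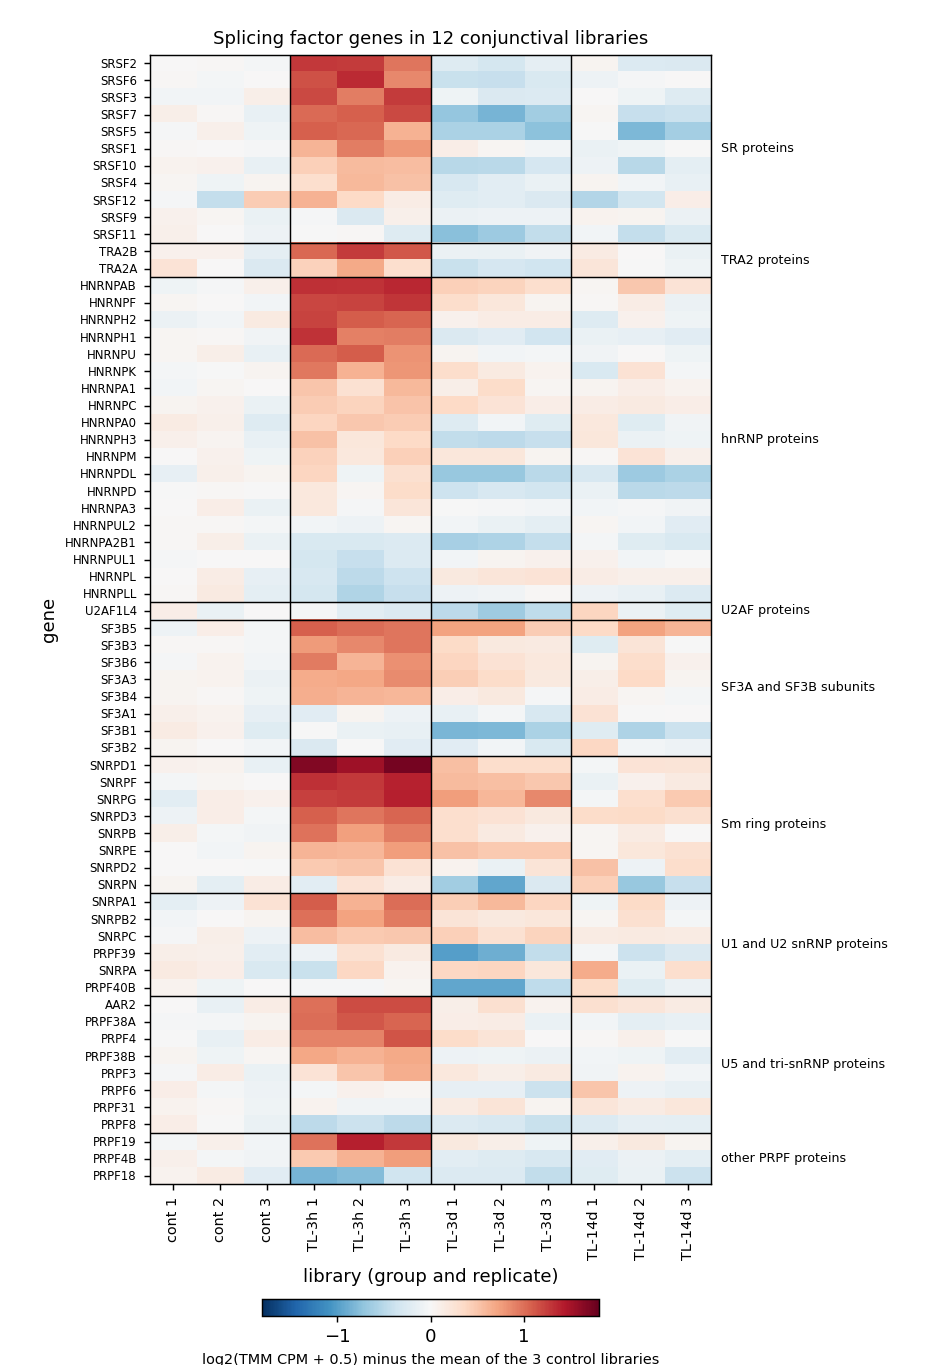
Level of 66 of the 67 splicing factor genes (rows, by role) in each of 12 libraries (columns), as log2(TMM CPM + 0.5) minus the mean of the 3 control libraries. Red is higher and blue is lower than the control. The 3-hour columns are red for most rows, and SRSF7, PRPF39 and SF3B1 are among the rows that are blue at 3 days.

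The hnRNP proteins coat nascent transcripts. At 3 hours 11 of 19 were higher and 3 were lower, against 23.2% and 22.2% of all genes, with a median of 0.37. HNRNPAB, an RNA binding protein of the nucleus and cytoplasm, had 224, 234 and 253 CPM in the control and 587, 582 and 604 CPM at 3 hours, a change of 1.32 ± 0.14 (q = 8.12e-05). HNRNPF, which binds G-rich sequence, had 344, 338 and 324 CPM in the control and 770, 779 and 815 CPM at 3 hours, a change of 1.23 ± 0.12 (q = 7.51e-05). Both genes were above every control library in all 3 libraries at 3 hours. HNRNPH2, a close relative of HNRNPF, rose by 1.12 ± 0.12 (q = 8.80e-05), and HNRNPU, a nuclear scaffold protein, rose by 0.98 ± 0.13 (q = 0.000312). The counts of HNRNPA1, HNRNPA2B1, HNRNPC and HNRNPM were fractions in 100% of libraries, and those of HNRNPF and HNRNPH2 were fractions in 91.7%. Outside this family the counts of SRSF1, SRSF2, SRSF10, SRSF11, SNRPC, SNRPD3, SNRPN, PRPF18 and PRPF40B were also fractions in 100% of libraries. Over all genes 23.4% of values were fractions. Whether these reads were shared with similar or overlapping genes was not tested, and the levels of these genes are uncertain to that extent.

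HNRNPL, HNRNPLL and HNRNPUL1 went the other way. HNRNPL, which binds CA repeats, had 180, 197 and 162 CPM in the control, 147, 129 and 138 CPM at 3 hours and 203, 208 and 213 CPM at 3 days. Its 3-hour libraries were below all others, with a change of -0.38 ± 0.11 (q = 0.0159) and a return of 0.59 ± 0.11 (q = 0.00212). HNRNPLL, its paralog that is known from T cell activation, had a change of -0.43 ± 0.12 (q = 0.0144), and HNRNPUL1 had -0.32 ± 0.10 (q = 0.0226). On the TMM scale these were the 3 genes of the 67 that were higher at 3 days than at 3 hours. With library size as the sole scaling 13 were higher, these 3 included, against 34.2% of all genes. Of the 3 genes HNRNPL alone kept its call on the TMM scale under every omission of a library. HNRNPLL lost it under 5 omissions (q at most 0.0817) and HNRNPUL1 without TL-3d replicate 2 or 3 (q at most 0.0706). All 3 calls at 3 hours were lost without control replicate 2, and q was then at most 0.0746 for them. HNRNPA2B1, HNRNPDL and HNRNPH3 were lower at 3 days than in the control, by -0.53 ± 0.12, -0.62 ± 0.16 and -0.45 ± 0.13.

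Subunits of SF3A and SF3B, the U2 snRNP complexes that contact the branch point, split by subunit. At 3 hours 5 of 8 were higher and 0 were lower on the TMM scale, against 23.2% and 22.2% of all genes. With library size as the sole scaling, SF3B5 alone was higher, and SF3A1, SF3B1 and SF3B2 were lower. Over all genes 12.7% were higher and 38.2% were lower on that scale. SF3B5, a small SF3B subunit, had 22.2, 25.9 and 23.1 CPM in the control, 50.5, 48.0 and 46.5 CPM at 3 hours and 39.3, 39.3 and 32.6 CPM at 3 days. It was above the control in all 9 libraries of the operated eyes, with 30.5, 39.7 and 36.5 CPM at 14 days. The change was 1.03 ± 0.13 (q = 0.000240) at 3 hours, 0.64 ± 0.13 (q = 0.0159) at 3 days and 0.58 ± 0.13 (q = 0.346) at 14 days. SF3B3, SF3B4, SF3B6 and SF3A3 were higher at 3 hours by 0.63 to 0.87 on the TMM scale alone. SF3B1, the subunit that is often mutated in blood cancers, had 1162, 1108 and 907 CPM in the control, 1045, 972 and 959 CPM at 3 hours and 594, 599 and 709 CPM at 3 days. It did not pass at 3 hours on the TMM scale (-0.09, q = 0.656) and was lower at 3 days (-0.74 ± 0.16, q = 0.0169), without overlap.

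Sm ring proteins, which form the core of most spliceosomal snRNPs, had the highest median of the larger groups at 3 hours, 0.96. On the TMM scale 6 of 8 were higher and 0 were lower, against 23.2% and 22.2% of all genes. SNRPD1 (chr9:62935673-62949829) had 10.9, 10.9 and 9.38 CPM in the control, 33.9, 31.0 and 35.5 CPM at 3 hours, 15.3, 13.1 and 13.1 CPM at 3 days and 10.2, 12.4 and 12.3 CPM at 14 days. The 3-hour libraries did not overlap with any other group, and the change of 1.68 ± 0.14 (3.21-fold, q = 3.89e-05) was the largest of the 67 genes. With library size as the sole scaling it was 1.18 (q = 0.000245). SNRPF and SNRPG rose by 1.35 ± 0.11 (q = 3.48e-05) and 1.32 ± 0.16 (q = 0.000180).

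Some of the Sm genes stayed above the control at 3 days. SNRPG had 12.7, 15.9 and 15.5 CPM in the control and 24.9, 22.5 and 27 CPM at 3 days (0.76 ± 0.16, q = 0.0169). SNRPF changed by 0.54 ± 0.11 (q = 0.0156) and SNRPE by 0.50 ± 0.10 (q = 0.0165). With SF3B5 and SNRPC these were the 5 genes of the 67 that were higher at both times on the TMM scale. The call of SNRPC at 3 days (0.37, q = 0.0381) was lost under 14 of 20 alternatives. SNRPD2 and SNRPN, which is expressed from the paternal allele in many mammals, passed in no comparison with the control.

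Among proteins particular to the U1 and U2 snRNPs, 4 of 7 were higher at 3 hours and 0 were lower on the TMM scale. Over all genes 23.2% were higher and 22.2% were lower. SNRPB2, a U2 protein, had 26.6, 27.6 and 28.4 CPM in the control and 55.0, 45.6 and 52.9 CPM at 3 hours (0.90 ± 0.12, q = 0.000286). The U1-associated factors PRPF39 and PRPF40B did not pass at 3 hours and were lower at 3 days, by -0.76 ± 0.18 (q = 0.0211) and -0.80 ± 0.20 (q = 0.0271). PRPF40B had 11.3, 10.2 and 10.9 CPM in the control and 5.42, 5.39 and 7.74 CPM at 3 days. The groups do not overlap. U2AF1L4, a paralog of the small U2AF subunit, passed in no comparison on the TMM scale.

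Of the U5 and tri-snRNP proteins, 5 of 8 were higher and 1 was lower at 3 hours, against 23.2% and 22.2% of all genes. AAR2, an assembly factor that holds PRPF8 in a U5 precursor (chr4:3664281-3679969), had 12.4, 11.3 and 13.7 CPM in the control, 25.2, 28.7 and 28.8 CPM at 3 hours, 13.3, 15.2 and 13.1 CPM at 3 days and 15.3, 14.5 and 13.9 CPM at 14 days. The 3-hour libraries were above all others, with a change of 1.14 ± 0.13 (q = 0.000145) and a following change of -0.99 ± 0.13 (q = 0.000380). PRPF38A, a protein of the activating spliceosome, had 45.7, 45.2 and 48.2 CPM in the control and 93.3, 101 and 96.4 CPM at 3 hours (1.06 ± 0.10, q = 5.81e-05). PRPF8, the largest core protein of the spliceosome, had 401, 370 and 342 CPM in the control and 267, 284 and 268 CPM at 3 hours. All 3 libraries were below the control, with a change of -0.44 ± 0.11 (q = 0.00880).

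**Figure D4:**
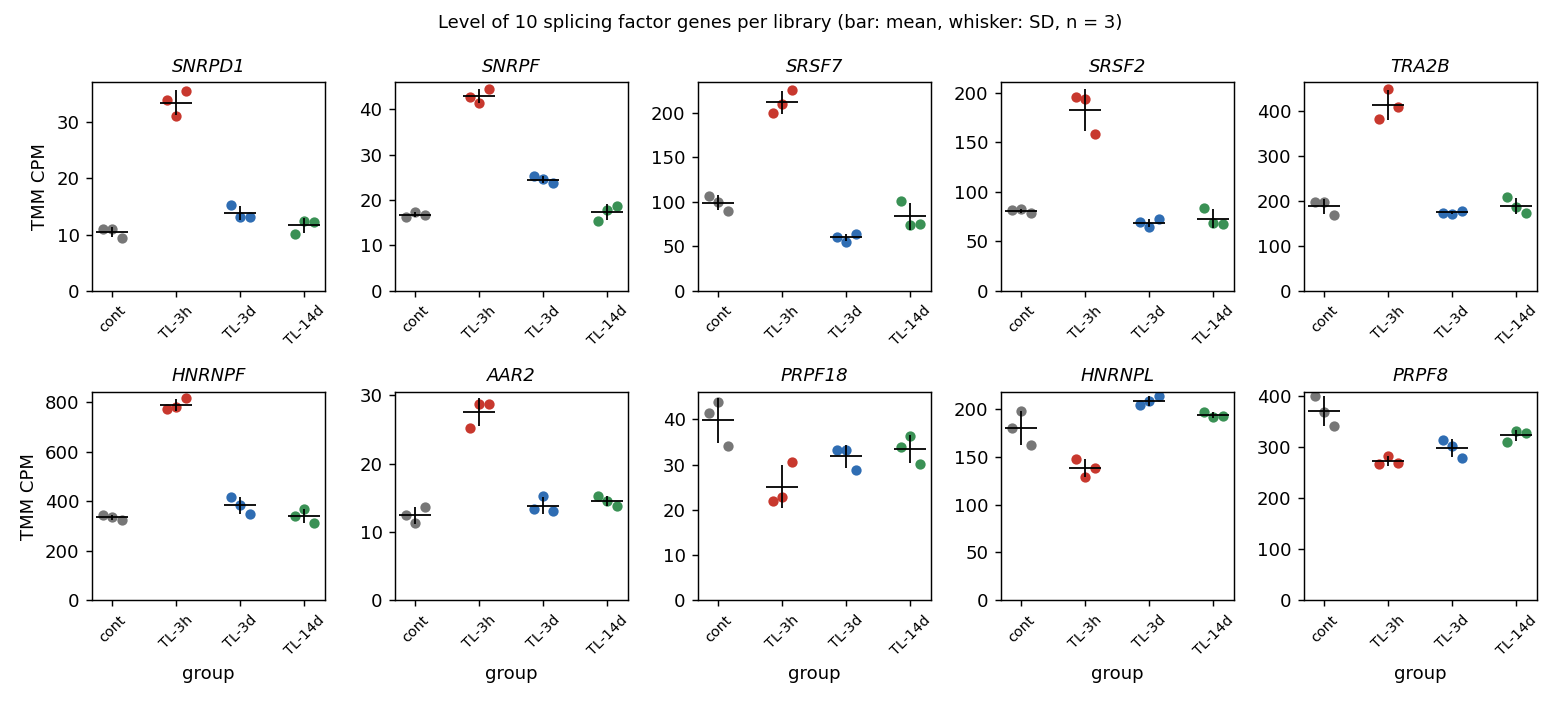
Level (TMM CPM, linear axis from 0) of 10 splicing factor genes in each library by group, chosen from the named genes to show rises and falls. Points are libraries, bars are means and whiskers are SDs (n = 3). SNRPD1, SNRPF, SRSF7, SRSF2, TRA2B, HNRNPF and AAR2 lie above the control at 3 hours, and PRPF18, HNRNPL and PRPF8 lie below it.

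The remaining PRPF genes also split. PRPF19, a ubiquitin ligase of the activated spliceosome, had 70.9, 77.9 and 70.5 CPM in the control and 144, 194 and 177 CPM at 3 hours (1.23 ± 0.13, q = 9.20e-05). PRPF4B, a kinase, was higher on the TMM scale alone (0.63 ± 0.11, q = 0.00131). PRPF18, a factor of the second catalytic step, had 41.4, 43.8 and 34.1 CPM in the control and 21.9, 22.9 and 30.7 CPM at 3 hours, without overlap (-0.66 ± 0.16, q = 0.00736).

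The calls at 3 days against the control were near the threshold. In edgeR 0 of the 67 genes passed at 3 days without control replicate 1, TL-3d replicate 1 or TL-3d replicate 2, with a smallest q of 0.0547, 0.0517 and 0.0505, and SF3B5 alone passed without control replicate 2 (q = 0.0496). An unadjusted p under 0.05 was found for 26 of the 67 genes with all libraries, against 36.2% of all genes, and for 18 to 22 under these 4 omissions. The calls over all genes fell with them, to 1.76% to 2.44% higher and 0.403% to 0.999% lower, from 10.6% and 7%. The fold changes moved less, and over all omissions that of SRSF7 ranged from -0.80 to -0.67, that of SF3B1 from -0.86 to -0.67 and that of SNRPF from 0.52 to 0.57 on the log2 scale. Every gene named above for a change at 3 days lost its call without control replicate 1, and the calls at 3 hours were more stable, with 40 to 49 genes past the threshold over all omissions.

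At 14 days 0 of the 67 genes and 0% of all genes tested passed in edgeR. An unadjusted p under 0.05 was found for 5 of the 67 genes and for 10.4% of all genes. Without overlap, 7 genes were above and 6 below the control, against 6.03% and 5.11% of all genes. DESeq2's test called 2 of the 67 genes higher and 1 lower, against 1.95% and 0.519% of all genes. Without TL-14d replicate 1 edgeR called 1 higher and 2 lower, against 3.51% and 1.22% of all genes, and without TL-14d replicate 2 it called 0, with 4 at an unadjusted p under 0.05. The smallest p-values belonged to SF3B5, SNRPD3 (0.33 ± 0.09, q = 0.346) and HNRNPDL (-0.50 ± 0.16, q = 0.370).

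Levels between genes were compared per length, as FPKM in the control. HNRNPA1 was highest with 471 ± 21.9 FPKM (SD, n = 3), followed by HNRNPK with 219 ± 4.16 FPKM and HNRNPAB with 180 ± 5.67 FPKM. HNRNPA3 followed with 178 ± 20.4 FPKM, which does not differ from HNRNPAB beyond the spread. SRSF12 was lowest with 1.63 ± 0.638 FPKM. Across the 67 genes the log2 fold change at 3 hours had a Spearman correlation of -0.36 with transcript length and 0.09 with the control FPKM, which are descriptions over genes that share the same libraries.

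Transcripts of these genes also changed in their proportions. The transcript table held several transcripts for 27 of the 67 genes, and 25 could be tested for a change in relative usage. At 3 hours 9 of the 25 passed the gene-level F test of edgeR, against 5.39% of all genes tested, and 6 passed at 3 days, against 1.64%. This F test gave small p-values more often than its nominal rate on simulated data without any change, so limma's diffSplice, which came closer to that rate, is given beside it. It called 10 genes at 3 hours and 7 at 3 days, against 5.94% and 1.64% of all genes, and these included all 9 and all 6. The Simes combination, which needs 1 transcript with strong evidence, called 1 gene at each time, against 1.39% of all genes at 3 hours and 0.645% at 3 days. These were HNRNPH3 at 3 hours and HNRNPC at 3 days (q = 0.0360), and HNRNPC did not pass the F test (q = 0.133), so that no call at 3 days was shared by both tests. The F test's calls at 3 days fell to 1 without control replicate 1 and to 2 without control replicate 2, TL-3d replicate 1 or TL-3d replicate 2, and over all genes these omissions left 0.489% to 0.791%. Estimated counts of transcripts depend on how the authors divided shared reads, and transcripts are identified here by their length.

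In HNRNPA2B1, which encodes 2 related hnRNP proteins, the transcript of 1992 bases held 8.54%, 10.3% and 9.36% of the gene's count in the control, 24.9%, 24.8% and 24.3% at 3 hours, 15.5%, 15.8% and 14.0% at 3 days and 7.69%, 12.6% and 12.2% at 14 days. The transcript of 3299 bases fell from a mean of 58.8% to 42.1% at 3 hours. Neither pair of groups overlaps, and the gene-level q was 7.77e-10 by the F test and 4.49e-10 by limma. At 3 days the gene-level q was 0.000146, and it was past the threshold under every alternative except the Simes combination.

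In TRA2A the transcript of 2443 bases held 60.5%, 58.9% and 59.0% of the count in the control, 33.0%, 32.5% and 24.5% at 3 hours, 42.0%, 43.1% and 48.3% at 3 days and 58.0%, 47.3% and 48.4% at 14 days. The transcripts of 1852 and 1854 bases rose in share at 3 hours, from means of 14.4% and 12.4% to 31.5% and 25.2%. In TRA2B the transcript of 1887 bases held 2.18%, 2.61% and 4.46% in the control and 9.36%, 9.26% and 7.55% at 3 hours. It returned to 3.95%, 3.00% and 3.39% at 3 days, within the control range. TRA2B was still among the 6 genes called at 3 days (q = 0.0196 by the F test and 0.00874 by limma), and its transcript of 2297 bases was at 16.9%, 14.2% and 13.8% in the control and at 10.7%, 11.2% and 10.4% at 3 days. The transcript of 1913 bases was at 2.47%, 1.99% and 2.13% in the control and at 0.551%, 0.0634% and 0.561% at 3 hours.

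In SRSF11 the transcript of 3648 bases held 44.4%, 45.8% and 43.7% in the control, 27.6%, 25.8% and 21.5% at 3 hours and 26.1%, 24.9% and 35.2% at 3 days. The gene's total did not pass at 3 hours on the TMM scale and was lower with library size as the sole scaling. In HNRNPH3 the transcript of 2396 bases held 37.2%, 36.3% and 33.9% in the control, 16.3%, 24.5% and 20.5% at 3 hours and 37.5%, 32.3% and 40.1% at 3 days. Its usage call at 3 hours held under all 16 alternatives, Simes included, and q was at most 0.00676. HNRNPU and SRSF1 also passed at 3 days. In HNRNPU the minor transcript of 7467 bases was at a mean of 2.71% in the control, 6.04% at 3 hours and 5.91% at 3 days, and in SRSF1 the transcript of 1376 bases fell from 11.5% to 5.99% at 3 days.

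**Figure D5:**
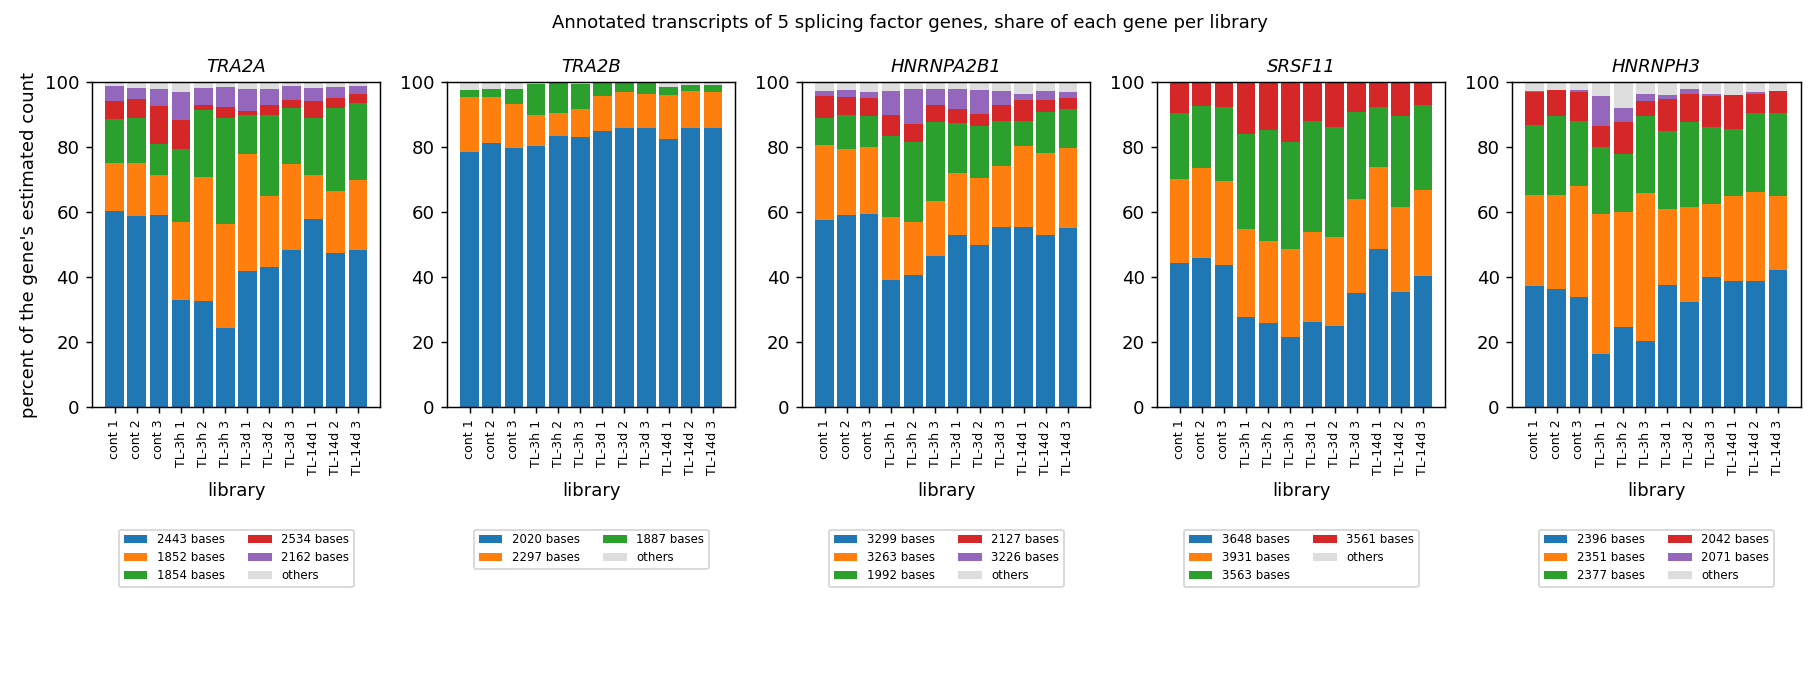
Share of each gene's estimated count (percent) held by its annotated transcripts, named by length in bases, in each library for TRA2A, TRA2B, HNRNPA2B1, SRSF11 and HNRNPH3. Transcripts under 5% in all group means are pooled as others. In TRA2A the 2443-base transcript falls from 58.9% to 60.5% in the control to 24.5% to 33.0% at 3 hours.

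Other splicing genes outside the name rule were read from lists of the wider machinery. Of 107 such genes tested, 42 were higher and 18 were lower at 3 hours, against 23.2% and 22.2% of all genes, with a median of 0.22. From 3 hours to 3 days 11 rose and 50 fell, against 18.4% and 19% of all genes. All 6 exon junction complex genes were higher at 3 hours, among them MAGOH, a core subunit (1.30, q = 9.81e-05). Of the SMN complex, which loads Sm rings onto small nuclear RNAs, 7 of 10 were higher and 1 was lower. Of the spliceosome helicases 6 of 11 were higher and 1 was lower. The PRP19 complex and related genes had 8 of 15 higher and 2 lower, and the snRNP proteins with SNRNP names had 4 of 12 higher and 1 lower. Of 36 other splicing regulators, the largest list, 7 were higher and 8 were lower, of 9 LSM ring proteins 2 were higher and 2 were lower, and of 8 SR protein kinases 2 were higher and 3 were lower, beside the same 23.2% and 22.2% of all genes. These lists were counted on the TMM scale alone.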

How the data were processed

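RNA-seq of 12 conjunctival libraries was used, in 4 groups of 3 taken from the sample labels. Per the paper's methods, 150 bp paired-end reads were mapped with STAR to OryCun2.0 and summarised in GeneData Profiler; the submitters' processing notes name STAR 2.6.0c. For each gene and transcript the authors deposited the estimated count beside its FPKM. The estimated counts deposited were not scaled by library size, and 23.4% of gene values were fractions. FPKM was scaled by the authors to length and depth. How strand and shared reads were handled is not given in the sources used here.

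Estimated counts were rounded. filterByExpr (minimum count 10, total 15) kept 14835 genes and 26082 of 38710 transcripts. TMM and 1 quasi-likelihood fit of all 12 libraries were run in edgeR 4.0.16 under R 4.3.3, with Benjamini-Hochberg adjustment over all genes and a threshold of 0.05. Fold changes used a prior count of 0.125, and SEs came from the F statistic. Transcript usage was tested with diffSpliceDGE. Alternatives were DESeq2 1.42.0 size factors and test, library size only, limma 3.58.1, other filters, a replicate block, diffSplice, Simes and each library left out. An exact permutation test of 3 against 3 cannot go below 0.1 and was not used. No column of values was left unmapped.

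The tests were tested on simulated data in which a part of the genes changed, with rises and falls balanced. Fold changes were recovered without bias there, and the gene test kept its nominal rate for the unchanged genes. Changes of 2-fold or less were often missed and the usage F test was too liberal. Balanced changes meet the assumption of TMM, so these data cannot judge the scaling of the 3-hour libraries. Genes were named by rule: per role the 2 smallest joint p-values, per comparison the 5 largest and 5 lowest changes that passed without overlap at a mean of at least 1 CPM, the 3 smallest p-values at 14 days, TRA2A, TRA2B and AAR2, and the 5 smallest usage p-values per comparison. Others were named after their values were seen, and the single values of 1 gene are not reported here. The genes and lists were chosen with earlier results of these data known. A reference table of another rabbit assembly was not used.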

Additional observations from a re-analysis of the deposited data

Results flagged for a closer look

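The change against the control differed between TL-3d and TL-3h for 45 of the 67 splicing factor genes, by the direct test of TL-3d against TL-3h in edgeR. On the TMM scale 42 differences were negative and 3 were positive, against 19% and 18.4% of all genes. The values are the log2 fold change at 3 days minus that at 3 hours, for the genes named by rule that are reported here. The most negative differences were SRSF7 -1.82, SRSF5 -1.56, SRSF6 -1.50, SRSF2 -1.41, SRSF3 -1.32, SNRPD1 -1.27, TRA2B -1.25, PRPF19 -1.16, HNRNPF -1.04 and HNRNPH2 -1.01. Next came PRPF38A -1.01, HNRNPU -0.99, AAR2 -0.99, HNRNPAB -0.94, PRPF39 -0.88, PRPF4B -0.87, TRA2A -0.83, HNRNPDL -0.83, HNRNPH3 -0.81 and SNRPF -0.81. The smaller negative differences were PRPF40B -0.80, SNRPD3 -0.79, SRSF1 -0.74, SNRPB2 -0.69, SF3B1 -0.65, SF3B3 -0.64, SNRPG -0.57, SRSF11 -0.54 and SF3B5 -0.38. Positive differences were found for HNRNPL 0.59, HNRNPLL 0.38 and HNRNPUL1 0.35. SF3B5 lost its call with the same sign under 13 of 20 alternatives, and its sign turned under 1. The call was lost under 5 alternatives for SRSF11 and HNRNPLL, under 4 for SNRPG and under at most 2 for the other genes listed. With library size as the sole scaling, 20 of the 42 negative and all 3 positive differences among the 67 genes still passed. In total 20 differences were then negative and 13 positive, against 8.31% and 34.2% of all genes.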

How the results depend on the processing

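When libraries were scaled by their size alone, the 67 genes had a median change of 0.013 on the log2 scale at 3 hours and -0.16 from 3 hours to 3 days. With DESeq2 size factors these medians were 0.47 and -0.60, and DESeq2's own test gave 0.47 and -0.60. HNRNPH3 and TRA2A at 3 hours turned to -0.14 and -0.045, and SF3B5 from 3 hours to 3 days turned to 0.10, with library size only. DESeq2's test called 23 genes at 3 days, 9 higher and 14 lower, against 16.2% and 13.9% of all genes, and 3 at 14 days, 2 higher and 1 lower, against 1.95% and 0.519%. The Simes combination called 1 gene for usage at each time. The cause of these moves was not tested. Changes of 2-fold or less are the least reliably detected at 3 libraries per group.

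When each library was left out in turn, the number of genes past the threshold ranged from 40 to 49 at 3 hours, 0 to 19 at 3 days, 0 to 3 at 14 days, 37 to 47 from 3 hours to 3 days and 45 to 55 for the joint test. At 3 days it fell to 0 without control replicate 1, TL-3d replicate 1 or TL-3d replicate 2, and to 1 without control replicate 2. The medians ranged from 0.49 to 0.59, -0.033 to 0.032, -0.035 to 0.024 and -0.65 to -0.58. Usage calls ranged from 6 to 9 at 3 hours and from 1 to 7 at 3 days, with 1 without control replicate 1 and 2 without control replicate 2, TL-3d replicate 1 or TL-3d replicate 2. The same 4 omissions left 2 related genes each at 3 days. The related genes ranged from 48 to 63, 2 to 25, 0 to 0 and 46 to 65. Of 78 called results of named genes, 38 kept their call and direction under every alternative.

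With the replicate number as a block, 43 genes were higher and 5 lower at 3 hours, against 24.6% and 22.3% of all genes. At 3 days 4 were higher and 10 lower, against 11% and 7.29% of all genes. Of 18 same-numbered pairs 8 had a correlation over 0.1, with a range of -0.16 to 0.53. Differently numbered pairs were not compared, so these values cannot decide whether the numbers pair the samples.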
